A study of Rattus norvegicus with 43 samples.

Results

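Kidney cortex mRNA was compared between rats labelled Per1KO and rats labelled SS, on normal salt at 2pm. SS is the Dahl salt-sensitive rat, an inbred strain whose blood pressure rises on a high salt diet, and its genotype label here is SS WT. Per1KO stands for the genotype label SSper1-/-, which is the same strain with the clock gene Per1 knocked out. All rats of the study were male, and these had a 0.4% NaCl diet for 3 weeks. The comparison takes 12 of the 43 libraries of the study, 6 per label, chosen by their titles in the normal salt table. The other libraries are 6 SS and 5 Per1KO at 2am on the same diet, and 5 per label and time on 4% NaCl. Nothing used here states the age of the rats, the Per1 allele or the litters. P-values of this comparison measure the spread between libraries, taken from all 23 of the normal salt table in 4 groups, those of 2am included. Levels are FPKM, which counts sequenced fragments relative to the length of the gene and the size of the library. Differences are Per1KO minus SS on the log2(FPKM + 1) scale, with the SE from limma, and a gene passed when its p, adjusted by Benjamini-Hochberg over the 13436 genes tested, was below 0.05. This scale understates the change of genes with low values.

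The circadian clock of mammalian cells is a loop of transcription factors. CLOCK and BMAL1, which is encoded by Arntl, bind E-boxes and switch on the Period and Cryptochrome genes as well as Nr1d1, Ciart and Dbp. The Period and Cryptochrome proteins then hold CLOCK and BMAL1 back. A second loop runs through Nr1d1, which encodes REV-ERB alpha and represses Arntl at ROR elements, where ROR proteins activate it. Dbp, Tef and Hlf encode the PAR bZIP factors, which carry the rhythm to output genes in the kidney and the liver, and Nfil3 encodes a repressor at the same D-box sites. In the kidney, the clock is known to govern sodium transport, and PER1 has been described as a regulator of the epithelial sodium channel.

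The promoters of 3 clock genes that differed by label are shown because they carry the letters of these loops. Each window is RefSeq sequence of the assembly GRCr8, 5′ to 3′ on the strand of the gene, from 250 bases before to 50 bases after an annotated start. Capitals mark the E-box CACGTG in Ciart and Nr1d1 and the ROR element TAGGTCA in Arntl, which RefSeq lists as Bmal1.
Ciart, chr2:186112197-186112496, minus strand: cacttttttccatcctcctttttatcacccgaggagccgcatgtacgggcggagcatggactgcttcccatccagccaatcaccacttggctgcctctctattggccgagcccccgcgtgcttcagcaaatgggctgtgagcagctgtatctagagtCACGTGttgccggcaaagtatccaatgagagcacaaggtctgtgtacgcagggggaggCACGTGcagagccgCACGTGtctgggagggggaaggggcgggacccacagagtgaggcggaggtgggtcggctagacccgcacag
Nr1d1, chr10:84229405-84229704, minus strand: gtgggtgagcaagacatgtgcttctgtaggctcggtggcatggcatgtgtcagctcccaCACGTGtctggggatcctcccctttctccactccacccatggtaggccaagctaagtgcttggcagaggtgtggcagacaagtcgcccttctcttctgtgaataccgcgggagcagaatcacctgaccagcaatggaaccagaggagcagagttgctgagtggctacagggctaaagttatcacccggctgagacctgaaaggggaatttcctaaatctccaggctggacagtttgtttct
Arntl, chr1:176766078-176766377, plus strand: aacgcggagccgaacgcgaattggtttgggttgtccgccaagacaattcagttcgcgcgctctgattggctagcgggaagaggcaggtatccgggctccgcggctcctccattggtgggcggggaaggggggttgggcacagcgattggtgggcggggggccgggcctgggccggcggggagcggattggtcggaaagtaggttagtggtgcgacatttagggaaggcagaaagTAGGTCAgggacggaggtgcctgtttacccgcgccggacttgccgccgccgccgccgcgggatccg

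The Ciart window held 3 E-boxes, which began at positions -93, -35 and -21 from the start. The Nr1d1 window shown is that of 1 of its 2 annotated starts and held an E-box at position -191, while the window of the other start held the variant E-box CACGTT. The Arntl window held 1 ROR element at position -16. Letters were searched on both strands. An E-box stood in 6.42% of all 33469 RefSeq windows and in 10.1% of the 9706 tested genes that matched a RefSeq promoter. Of the 50 genes that passed, 37 matched, and 6 of them held an E-box: Nr1d1, Ciart, Clcn6, Lonrf3, Zfyve26 and Drg2. The ROR element stood in 2.63% of all windows, in 1.98% of the matched tested genes and in Arntl alone among those 37. The variant E-box stood in 4.83% of all windows, in 5.77% of the matched tested genes and in Nr1d1 alone among the 37. The D-box TTATGTAA stood in 0.893% of all windows and in 0.484% of the matched tested genes. For the glucocorticoid response element GNACANNNTGTNC these shares were 0.439% and 0.258%. Neither was found in any of the 37, which hold Dbp, Sgk1 and Tsc22d3. A match describes these letters in these windows and nothing more.

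The 12 libraries held 26718381 to 41637801 recovered fragments each in Per1KO and 23970595 to 31194094 in SS (exact permutation test, p = 0.119, two-sided). Mitochondrial genes took 13.4% to 15.7% of fragments in Per1KO and 11.8% to 17.0% in SS. All libraries of Per1KO at 2pm carry library names of 1 number series and all SS libraries at 2pm names of another, so the label and the library series cannot be told apart. Of 101 tested markers of 14 cell types, 0 passed by label in limma or in voom, and the mean log2 level of the lists gave exact permutation p of 0.299 and above, two-sided. Before adjustment, 2 of 12 proximal tubule markers and 2 of 11 collecting duct markers had a p below 0.05, as did 1 each of podocyte, endothelium, lymphocyte, fat and medulla markers. Of 6 urothelium markers none was tested, since all 6 lay below 1 FPKM in each of the 12 libraries. Among the markers of proximal tubule, the summed level ran from 9437 to 13198 FPKM in Per1KO and from 7226 to 13541 in SS.

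Both groups held a library that stood apart in these markers. SS replicate 5 had the lowest proximal tubule sum of the 12 libraries, and its distal and connecting tubule sum was 35.8 FPKM against at least 175 in each of the others. Its thick ascending limb sum was the highest, at 3331 FPKM. Slc7a13, a transporter of the last segment of the proximal tubule, stood at 2171 FPKM there and at 22.6 to 695 in the other libraries. Per1KO replicate 1 was high in fat markers: Fabp4 stood at 190.5 FPKM against 5.51 to 27.1 elsewhere, and Adipoq, which encodes the fat hormone adiponectin, at 30.5 against 2.35 to 4.97. The part that these markers play in the label differences was not tested. Results were therefore also taken without SS replicate 5 and Per1KO replicate 1 together. SS replicate 2 had the highest collecting duct sum, at 789 FPKM against at most 560 in the other libraries. It was left out only on its own. In bulk tissue, fewer cells of a type and less RNA per cell cannot be told apart.

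**Figure D1:**
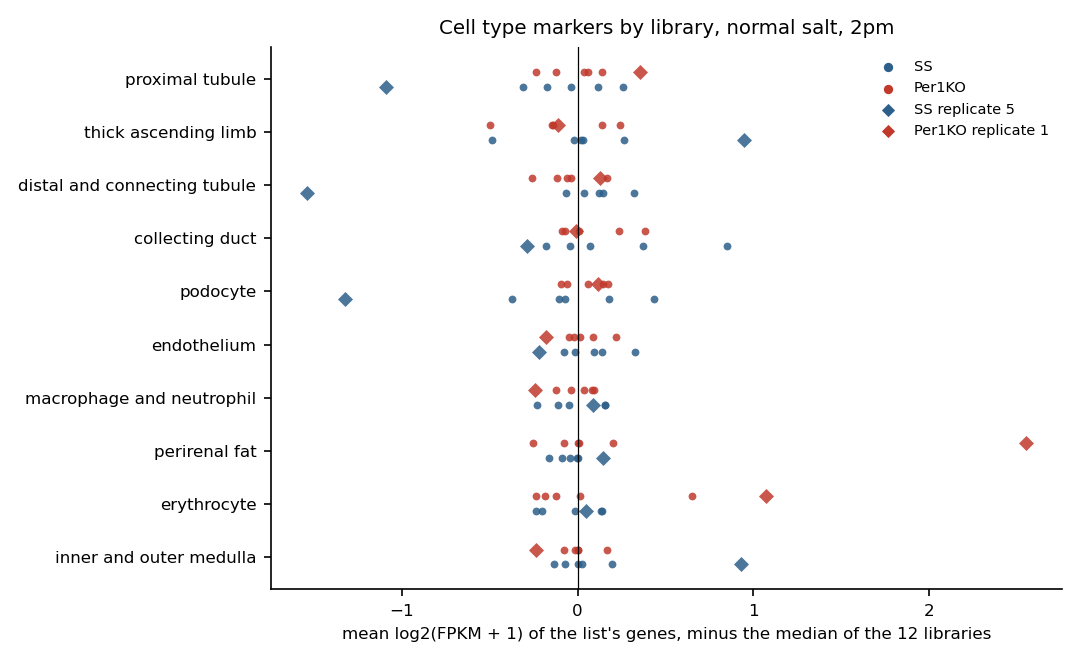
Mean log2(FPKM + 1) of 10 cell type marker lists in each of the 12 libraries, as the difference from the median library of the list. SS replicate 5 (blue diamond) stands low in proximal, distal and podocyte markers and high in thick ascending limb and medulla, Per1KO replicate 1 (red diamond) stands high in fat, and the other libraries of both labels overlap in every list.

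Per1 itself, the targeted gene, did not pass. Its level in the 6 SS libraries had a lowest, median and highest value of 12.7, 15.8 and 26.9 FPKM, and in the 6 Per1KO libraries of 7.94, 15.6 and 21.9. The groups overlap over most of their range, and the difference was -0.16 ± 0.22 (SE), adjusted p = 0.735. Without Per1KO replicate 1, the library with the lowest value, it was 0.0016. At 2am the difference was -0.16 ± 0.23 (adjusted p = 0.763). The level of Per1 mRNA thus gives no check of the labels, and the labels do not say what part of the gene the allele changes. Per1KO and SS below are the labels of the libraries.

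Few genes differed by label in the day. Of the 13436 genes tested, 50 passed (0.372%), of which 34 were higher in Per1KO (0.253% of all genes) and 16 were lower (0.119%). The differences were small: the median absolute difference of the 50 genes was 0.47, 27 were below 0.5 and 6 were at 1 or more. For 25 of the 50 genes, the 6 Per1KO values and the 6 SS values did not overlap, which held for 62 of all genes tested (0.461%). All but 1 of the 50 are protein coding. Without an adjustment, 2020 genes had a p below 0.05, and the median difference of all genes was -0.0049. The count rests on the fit of all 23 normal salt libraries, which estimates the spread from 4 groups. These groups did not spread alike. The array weights of limma, lower where a library deviates more, ran from 0.200 to 1.51 in SS at 2pm. They ran from 0.496 to 2.26 in Per1KO at 2pm and from 0.877 to 3.01 at 2am. The shared SE and adjusted p can thus understate the spread of the groups compared. In a fit of only the 12 libraries, 3 genes passed, namely Nr1d1, Ciart and Dbp. With the replicate number as a block in that fit, an alternative chosen after seeing the data, 0 genes passed. These 3 genes then had an adjusted p of 0.11 each, while 1885 genes had a p below 0.05 before adjustment. Leaving out 1 library at a time gave 19 to 113 genes, and the count moved by more than 1.5 times without any of the 6 Per1KO libraries or without SS replicate 2. It was 20, 113, 25, 19, 30 and 20 without Per1KO replicates 1 to 6 and 21 without SS replicate 2. None of the 50 changed direction in any of 22 other settings.

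**Figure D2:**
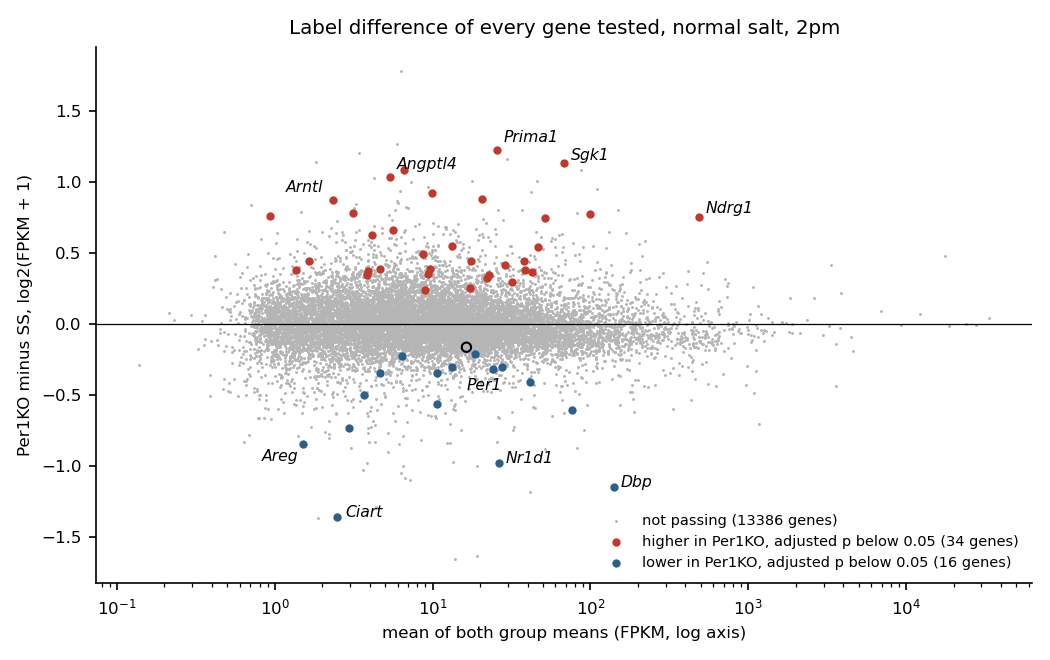
Label difference on the log2(FPKM + 1) scale (vertical axis) against the mean of both group means in FPKM (horizontal log axis) for the 13436 genes tested. The 34 genes that were higher in Per1KO are red and the 16 that were lower are blue, with Ciart, Dbp and Nr1d1 among the lowest, Prima1 and Sgk1 among the highest, and Per1 (open circle) close to 0.

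The smallest p of the comparison belonged to clock genes. Of 18 core clock genes tested, 1 was higher (Arntl) and 2 were lower (Nr1d1 and Ciart), and 7 of the 18 had a difference above 0. Nr1d1, the repressor of Arntl, had a lowest, median and highest level of 30, 34.3 and 44.5 FPKM in SS and of 14.6, 17.1 and 21.2 in Per1KO. All Per1KO libraries lay below all SS libraries, and the difference was -0.98 ± 0.11 (SE), adjusted p = 4.62e-05. The mean level in SS was 2.03 times that in Per1KO. Nr1d1 overlaps Thra in the annotation, and Thra differed by -0.24 (adjusted p = 0.199).

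Ciart, which encodes a repressor of CLOCK and BMAL1, had a lowest, median and highest level of 2.18, 4.0 and 6.17 FPKM in SS and of 0.574, 0.894 and 1.35 in Per1KO. The groups did not overlap, and SS values spread over a wider range than Per1KO values. The difference was -1.36 ± 0.15 (SE), adjusted p = 4.62e-05, and the ratio of the means, SS over Per1KO, was 4.51. Arntl moved the other way. Its values were 0.799, 1.05 and 2.94 FPKM in SS and 2.64, 3.09 and 4.56 in Per1KO, a difference of 0.87 ± 0.14 (SE), adjusted p = 0.00578. The highest SS value was that of replicate 5, which lay above the 3 lowest Per1KO libraries, and the other SS libraries lay below all Per1KO libraries. These 3 genes kept their calls whichever library was left out, with adjusted p of at most 2.37e-04, 2.74e-04 and 0.0179, in the order Nr1d1, Ciart and Arntl. Without SS replicate 5 and Per1KO replicate 1 together, the adjusted p of Arntl was 9.84e-06. In the fit of only the 12 libraries, Arntl did not pass (adjusted p = 0.274).

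Other members of the loop did not pass. Bhlhe41, which encodes the E-box repressor DEC2, had 3.13, 4.15 and 7.53 FPKM in SS and 2.37, 2.77 and 3.05 in Per1KO. Its groups did not overlap, with a difference of -0.63 ± 0.15 (SE), adjusted p = 0.0683, and without SS replicate 4 it passed (adjusted p = 0.028). Clock, the partner of Arntl, differed by 0.41 (adjusted p = 0.113) and passed without Per1KO replicate 2 (adjusted p = 0.0216) or without SS replicate 3 (0.0454). The other Period genes differed by -0.02 (adjusted p = 0.933) for Per2 and -0.27 (adjusted p = 0.287) for Per3. Among the Cryptochromes, the difference was 0.20 (adjusted p = 0.396) for Cry1 and -0.22 (adjusted p = 0.272) for Cry2. Nr1d2, the paralog of Nr1d1, ran from 27.8 to 38 FPKM in SS and from 25.3 to 32.9 in Per1KO, a difference of -0.11 (adjusted p = 0.524). For Npas2, an alternative partner of BMAL1, the difference was 0.13 (adjusted p = 0.647), and for Rora, the ROR activator, it was 0.17 (adjusted p = 0.657). Bhlhe40, Csnk1d, Csnk1e and Timeless had differences between -0.13 and 0.07, and none of them passed.

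**Figure D3:**
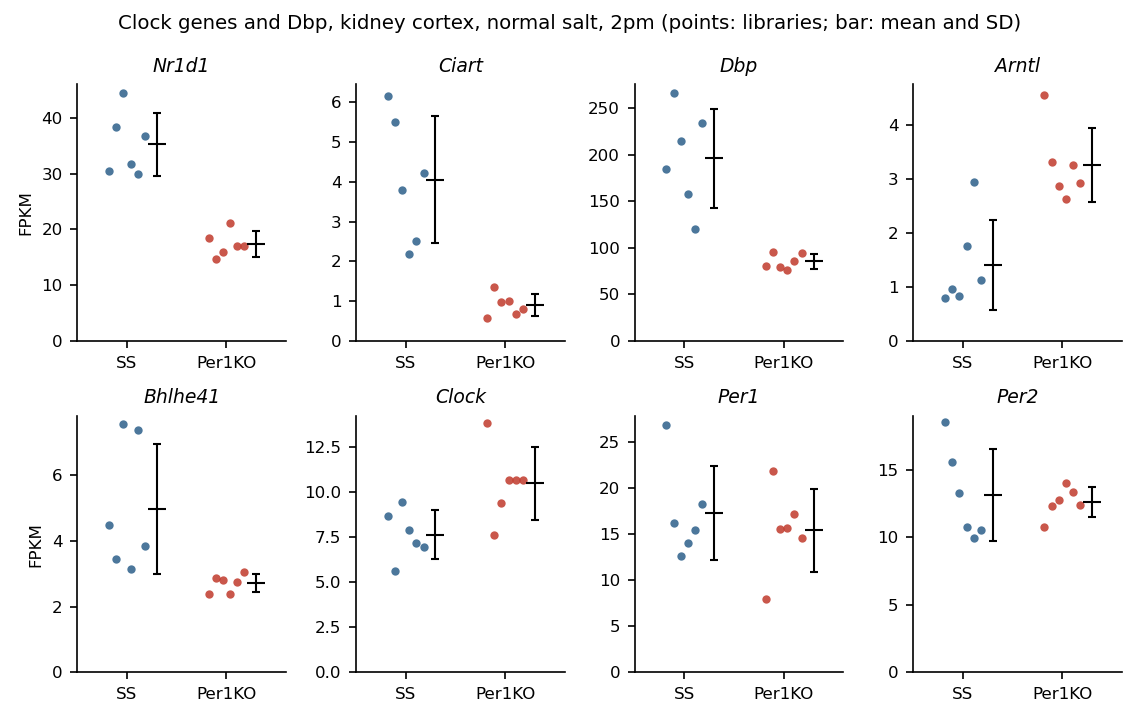
FPKM of 7 clock genes and of Dbp in the 6 SS (blue) and 6 Per1KO (red) libraries at 2pm on normal salt, with the mean and SD in black. Nr1d1, Ciart and Dbp are lower in every Per1KO library than in any SS library, Arntl is higher apart from 1 SS library, and Per1 and Per2 overlap.

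The clock output list held 24 tested genes, of which 2 were higher, 2 were lower, and 13 had a difference above 0. Dbp, the PAR bZIP activator, was lower. It had 121, 199.9 and 266 FPKM in SS and 76.3, 83.5 and 95.7 in Per1KO, without overlap, and differed by -1.15 ± 0.13 (SE), adjusted p = 4.62e-05. The Per1KO libraries lay within a narrow band while SS spread widely, with means of 85.5 ± 8.17 and 197 ± 53 FPKM (SD, n = 6 each). Its relatives differed less: Tef by -0.34 (adjusted p = 0.0997) and Hlf by -0.05 (adjusted p = 0.907). Tef passed without SS replicate 6 (adjusted p = 0.00994). Nfil3, which opposes them, differed by 0.45 (adjusted p = 0.161). Of the output genes, Alas1, the rate-limiting enzyme of haem synthesis, was lower, with 37.1 to 55.9 FPKM in SS and 32 to 44.5 in Per1KO, a difference of -0.41 ± 0.09 (SE), adjusted p = 0.0428. With the replicate number as a block its adjusted p was 0.0527, and the other 18 tested genes of haem synthesis and degradation did not pass. Alas1 overlaps Rpl29 in the annotation, which differed by -0.01 (adjusted p = 0.968). Lonrf3, a RING finger gene with an E-box in its window, was higher by 0.45 ± 0.09 (adjusted p = 0.0302), and Tsc22d3, described next, was the other output gene that was higher. Dbp kept its call whichever library was left out. Alas1 and Lonrf3 lost theirs in 9 of the 12 fits each, with adjusted p up to 0.123 for Alas1 without Per1KO replicate 1 and 0.0942 for Lonrf3 without SS replicate 2.

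Targets of corticosteroids that passed were all higher in Per1KO. Of 24 tested genes of the glucocorticoid list, 3 were higher and 0 were lower, and 15 had a difference above 0, with a median of 0.07. Sgk1, the corticosteroid-induced kinase that raises sodium channel activity, had 26.4, 38.7 and 70.3 FPKM in SS and 66.4, 93.5 and 109.6 in Per1KO. Only SS replicate 6 reached into the Per1KO range, and the difference was 1.14 ± 0.22 (SE), adjusted p = 0.022. Tsc22d3, which encodes the glucocorticoid-induced leucine zipper GILZ, had 32.3, 39.2 and 42.3 FPKM in SS and 44.2, 54.5 and 68.4 in Per1KO, without overlap, and differed by 0.54 ± 0.11 (SE), adjusted p = 0.0302. Angptl4, an inhibitor of lipoprotein lipase and a target of PPAR factors as well, had 1.6, 2.87 and 4.65 FPKM in SS and 4.49, 7.49 and 11.3 in Per1KO. Its groups touched at the edge, and it differed by 1.04 ± 0.21 (SE), adjusted p = 0.0302. All 3 lost their call without SS replicate 2 or without Per1KO replicates 4 or 6. Without SS replicate 2 the adjusted p was 0.0653 for Sgk1 and 0.0916 for Tsc22d3, the highest of the 12 fits that leave out a library, and for Angptl4 the highest was 0.0913, without Per1KO replicate 4. Sgk1 lost its call in 4 of the 12 fits, also without Per1KO replicate 1, and Tsc22d3 and Angptl4 in 7 each. With the replicate number as a block, Tsc22d3 had an adjusted p of 0.0738.

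Angptl4 is also made in fat. Its level in Per1KO replicate 1, the library with high fat markers, was 6.4 FPKM, and the Per1KO median was 7.49. Angptl4 lost its call without that library, and the part of fat in its difference was not tested. Without Per1KO replicate 1 and SS replicate 5 together, the adjusted p was 0.0802 for Angptl4, 0.0699 for Sgk1 and 0.0177 for Tsc22d3. Other corticosteroid targets did not pass: Fkbp5 had a difference of -0.19 (adjusted p = 0.683), Klf9 of 0.24 (adjusted p = 0.443) and Zbtb16 of -0.02 (adjusted p = 0.979). Pdk4, which holds pyruvate back from oxidation and is shared with the list of fatty acid oxidation, had 2.84 to 4.92 FPKM in SS and 5.08 to 15.6 in Per1KO. Its groups did not overlap, but its difference of 0.94 ± 0.22 had an adjusted p of 0.0683. In the sodium transport list of 30 tested genes, Sgk1 was the sole call. Scnn1a, the alpha subunit of the epithelial sodium channel, differed by -0.37 (adjusted p = 0.288). Slc12a3, the thiazide-sensitive cotransporter, differed by 0.19 (adjusted p = 0.805), and by -0.28 without SS replicate 5.

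**Figure D4:**
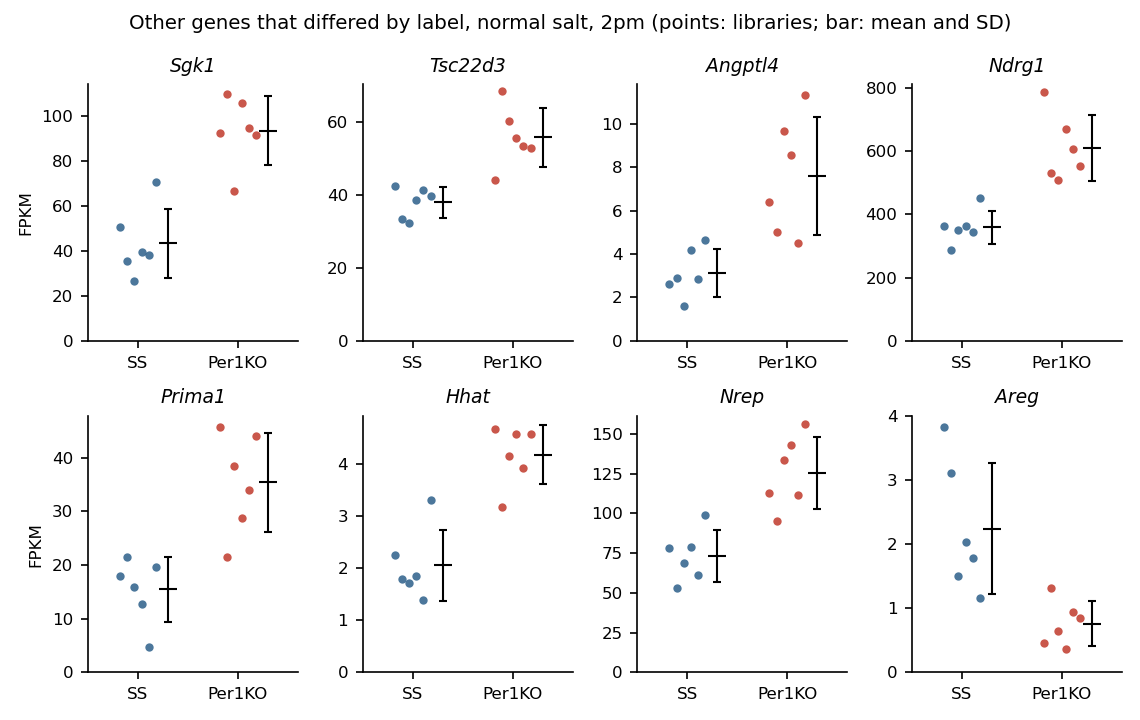
FPKM of 8 further genes that passed, in the 6 SS (blue) and 6 Per1KO (red) libraries at 2pm on normal salt, with the mean and SD in black. Sgk1, Tsc22d3, Angptl4, Ndrg1, Prima1, Hhat and Nrep are higher in Per1KO and Areg is lower, with groups that overlap for all but Tsc22d3 and Ndrg1.

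Of the 50 genes, 39 belong to no process list. Those named here follow in an order chosen after their values were seen, together with Ndrg1 and Areg, which are listed. Ndrg1, a gene induced by hypoxia and cell stress, was abundant, with 288, 356 and 451 FPKM in SS and 508, 580.0 and 786 in Per1KO. The groups did not overlap, and it was higher by 0.76 ± 0.12 (SE), adjusted p = 0.00578. It was the sole call among 18 tested genes of the hypoxia list. Hhat, the enzyme that attaches palmitate to Hedgehog ligands, had 1.38, 1.82 and 3.31 FPKM in SS and 3.18, 4.36 and 4.66 in Per1KO and was higher by 0.78 ± 0.13 (SE), adjusted p = 0.00578. A single SS library, replicate 6, reached into the Per1KO range. Prima1, which anchors acetylcholinesterase in the membrane, had 4.8, 16.9 and 21.5 FPKM in SS and 21.4, 36.2 and 45.7 in Per1KO. It differed by 1.22 ± 0.25 (SE), adjusted p = 0.0302, with groups that met at 21.4 and 21.5 FPKM and an adjusted p of 0.0527 under the block. Areg, which encodes the EGF receptor ligand amphiregulin, was lower, with 1.16 to 3.83 FPKM in SS and 0.369 to 1.32 in Per1KO, a difference of -0.84 ± 0.17 (adjusted p = 0.0302). It was the sole call among 24 tested genes of tubular injury. Of these genes, Ndrg1 and Hhat kept their calls whichever library was left out. Prima1 lost its call in 6 of the 12 fits, with an adjusted p of up to 0.0964 without Per1KO replicate 1, and Areg in 8, with up to 0.0942 without SS replicate 2.

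Nrep, a small protein known from nerve regeneration and wound repair, differed by 0.78 (adjusted p = 0.00578), with 53 to 99.3 FPKM in SS and 95.6 to 156 in Per1KO. Nuak2, a kinase related to AMPK, differed by 0.75 (adjusted p = 0.0263). Rasa2, which switches off Ras, differed by 0.67 (adjusted p = 0.0217). Esm1, a proteoglycan secreted by endothelium, differed by 0.55 (adjusted p = 0.0263), while 0 of 9 endothelial markers passed. The exporter of sphingosine 1-phosphate, Spns2, was higher by 0.45 (adjusted p = 0.0302) without overlap of the groups. Pde7b, which breaks down cyclic AMP, was higher by 0.49 (adjusted p = 0.0357) and had 0.0742 under the block. Of these 6 genes, Nrep kept its call whichever library was left out. The other 5 lost it in 4 to 9 of the 12 fits, with adjusted p up to 0.112 for Pde7b without Per1KO replicate 1.

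Pola2, a subunit of DNA polymerase alpha, had 4.01, 4.29 and 5.77 FPKM in SS and 2.52, 2.78 and 3.17 in Per1KO, without overlap, and was lower, with a difference of -0.50 ± 0.07 (SE), adjusted p = 0.00142. None of the 25 tested cell cycle genes passed. Ighmbp2, a helicase, was lower, with a difference of -0.35 ± 0.05 (SE), adjusted p = 0.00157, again without overlap, at 4.71 to 5.69 FPKM in SS and 3.86 to 4.22 in Per1KO. Cnot2, a subunit of the CCR4-NOT complex that shortens poly(A) tails, was higher by 0.42 ± 0.06 (SE), adjusted p = 0.00142, at 21.4 to 26.3 FPKM in SS and 28.4 to 36.7 in Per1KO. These 3 changes are small, and each kept its call whichever library was left out. Nxt2, an mRNA export factor, was higher by 0.62 (adjusted p = 0.00578). Hes6, a basic helix-loop-helix factor, was lower, with a difference of -0.61 (adjusted p = 0.0114).

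The coregulator Pnrc1 was higher by 0.36 (adjusted p = 0.0302), Irf2bpl by 0.38 (adjusted p = 0.0446) and Tob2, a binding partner of CCR4-NOT, by 0.45 (adjusted p = 0.047). Under the block their adjusted p was 0.0527, 0.0578 and 0.0687. All 3 missed the threshold in 5 to 9 of the 12 fits that leave out a library, with adjusted p up to 0.14.

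Among enzymes and transporters, Clcn6, a chloride and proton exchanger of endosomes, was higher by 0.34 (adjusted p = 0.0268), with 0.0652 under the block. Its groups did not overlap. Atp12a, a proton and potassium pump, was scarce, at 0.112 to 0.987 FPKM in SS and 0.514 to 2.23 in Per1KO, and was higher by 0.76 (adjusted p = 0.0267). Mgea5, which removes O-GlcNAc from proteins, was higher by 0.32 (adjusted p = 0.0341). Leaving out 1 library lost the call of Clcn6 in 5 of 12 fits, of Atp12a in 4 and of Mgea5 in 8, with adjusted p up to 0.107 for Mgea5 without Per1KO replicate 1.

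Lower were Crabp1, a cytosolic binding protein of retinoic acid, with -0.74 (adjusted p = 0.022), and Galnt18, of the enzyme family that starts O-glycans, with -0.57 (adjusted p = 0.0302). Gmppb, which makes GDP-mannose, had a difference of -0.34 (adjusted p = 0.0189), and Prpsap2, a partner of phosphoribosyl pyrophosphate synthetase, of -0.32 (adjusted p = 0.0363), with 0.0527 under the block. Crabp1, Gmppb and Prpsap2 had groups that did not overlap, and the Galnt18 groups did. Their calls were lost in 3 of the 12 fits that leave out a library for Crabp1, 2 for Gmppb, 7 for Galnt18 and 10 for Prpsap2, with adjusted p up to 0.112 for Prpsap2 without Per1KO replicate 1. Gmppb overlaps Rnf123 in the annotation, which differed by -0.14 (adjusted p = 0.345).

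Rab33b, a GTPase of the Golgi, was higher by 0.35 ± 0.06 (SE), adjusted p = 0.00531, without overlap. Zfyve26, which acts on endosomes and lysosomes, was higher by 0.37 (adjusted p = 0.0334). The liprins Ppfibp1 and Ppfibp2 were both higher, by 0.30 (adjusted p = 0.00672) and 0.39 (adjusted p = 0.0344), and both without overlap. Vps33b, which sorts vesicles, was lower with -0.22 (adjusted p = 0.0384), and Apba3, an adaptor of the X11 family, was lower with -0.21 (adjusted p = 0.0302). Under the block the adjusted p was 0.0823 for Ppfibp2, 0.0738 for Vps33b and 0.0626 for Apba3. Of these 6 genes, Rab33b and Ppfibp1 kept their calls whichever library was left out, and the other 4 lost theirs in 6 to 9 of the 12 fits, with adjusted p up to 0.112 for Vps33b without Per1KO replicate 6. Ppfibp2 and Apba3 overlap other tested genes, Cyb5r2 and Tjp3, in the annotation. Cyb5r2 differed by -0.08 (adjusted p = 0.754). Tjp3 differed by -0.21 (adjusted p = 0.376), about as much as Apba3.

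Tmcc3, a protein of the endoplasmic reticulum, was higher by 0.39 (adjusted p = 0.00578), the GTP-binding protein gene Drg2 by 0.25 (adjusted p = 0.0357) and Hspa12a, a distant relative of HSP70, by 0.35 (adjusted p = 0.0302). Ifrd2 was lower with -0.30 (adjusted p = 0.0268). RGD1309188 was lower with -0.30 (adjusted p = 0.0082) and had groups that did not overlap. It overlaps Yipf2 in the annotation, which differed by -0.03 (adjusted p = 0.791). LOC100364791 was higher by 0.93 (adjusted p = 0.022), and AC091481.2, the 1 called gene that is a long intergenic RNA, by 1.09 (adjusted p = 0.0253). AC091481.2 ran from 1.16 to 6.74 FPKM in SS and from 6.56 to 11.3 in Per1KO. Tmcc3 and RGD1309188 kept their calls in each fit that left out a library, and the other 5 lost theirs in 3 to 9 of 12.

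Most lists of kidney processes held no call. Of 25 lists, 8 had a passing member and 17 had none, and 11 of the 50 called genes belong to a list. Fatty acid oxidation and PPAR targets had 1 call of 39 tested, Angptl4, while 36 of the 39 had a difference above 0, with a median of 0.18 against -0.0049 for all genes. Proximal tubule transport had no call of 30 in limma or voom, 4 with a p below 0.05 before adjustment, with 22 above 0 and a median of 0.22. The markers of proximal tubule lay on the same side: 10 of 12 were above 0, with a median of 0.24, and their part in these medians was not tested. The mean log2 level of these markers was 8.28 to 8.94 in all libraries but SS replicate 5, which lay below that range. The highest value was that of Per1KO replicate 1. The counts and medians of these lists include both libraries, so they need not describe a shift shared by all libraries of a label. Dab2, the endocytic adaptor with the smallest p of the transport list, differed by 0.59 (adjusted p = 0.217). Cytosolic ribosomal proteins had no call of 42, none with a p below 0.05 before adjustment, with 2 above 0 and a median of -0.11. For oxidative phosphorylation, 0 of 39 nuclear genes passed, with 6 above 0 and a median of -0.08. Cholesterol synthesis had no call of 25. Its gene with the smallest p, Fdft1, which makes squalene, differed by -0.28 (adjusted p = 0.0986) and passed without Per1KO replicate 2 or without SS replicate 4.

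None of 30 extracellular matrix genes, 25 immediate early genes, 27 antioxidant genes or 28 heat shock and cold-inducible genes passed in limma or voom. Before adjustment, p was below 0.05 for 0, 3, 3 and 3 of them. The member with the smallest p differed by -0.66 (adjusted p = 0.21) for Dusp5, an ERK phosphatase of the immediate early list, by -0.35 (adjusted p = 0.177) for the quinone reductase Nqo1, and by -0.32 (adjusted p = 0.243) for the cold-inducible RNA-binding protein Cirbp. None of 31 tested interferon genes passed, and 1 had a p below 0.05 before adjustment. In the list of vitamin D and calcium handling, 0 of 21 passed. Stc1, which encodes the calcium-regulating hormone stanniocalcin, differed by 0.83 (adjusted p = 0.0683), and passed with the replicate number as a block (adjusted p = 0.0382). For glucose metabolism, 0 of 26 passed, and the member with the smallest p, the lactate and ketone transporter gene Slc16a1, differed by 1.17 ± 0.34 (SE), adjusted p = 0.171.

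The label differences at 2pm were set beside those at 2am on the same diet, measured in other libraries. The library names of both labels at 2am fall in separate runs of numbers, so label and library series cannot be told apart there either. At 2am, 561 of 13436 genes passed (4.18%), against 50 at 2pm. Of the 50 genes called at 2pm, 12 had the same sign at 2am and 38 the opposite sign, and among all genes tested 40.7% had the same sign. At 2am 14 of the 50 passed, 5 with the same sign and 9 with the opposite one. Nr1d1 was higher in Per1KO by 1.37 at 2am (adjusted p = 1.62e-07), where SS had 1.86 ± 0.463 FPKM (SD, n = 6) and Per1KO 6.35 ± 0.363 (SD, n = 5). Arntl was lower there, with -1.10 (adjusted p = 4.02e-04), and Ndrg1 and Hhat were lower with -0.52 and -0.57. Dbp was higher by 0.57 (adjusted p = 0.0221). Rab33b and Nxt2 were higher at both times, by 0.46 and 0.69 at 2am, and Ighmbp2 and RGD1309188 were lower at both, with -0.23 and -0.44.

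The change of the label difference with time was tested as an interaction in the same fit. It passed for 378 genes (2.81%) and for 35 of the 50, which were called on 1 of the 2 differences that the interaction holds. For Nr1d1 it was 2.35 ± 0.15 (adjusted p = 4.89e-09), for Arntl -1.97 ± 0.21 (1.33e-05), and for Ndrg1 -1.27 ± 0.18 (6.05e-04). The difference of SS between 2am and 2pm shares the SS libraries of 2pm, so its values stand here without a count. SS libraries of 2pm carry names of another series than those of 2am, and the names of Per1KO fall in separate runs of numbers at both times. Time and library series therefore cannot be told apart in either label. The interaction holds the SS difference between the times too. From 2pm to 2am, SS changed by -3.67 for Nr1d1, -3.04 for Dbp, -1.88 for Ciart, 3.02 for Arntl, 2.03 for Ndrg1 and 1.63 for Sgk1.

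The 5 SS libraries of high salt at 2pm differed widely among themselves in the clock. Arntl stood at 0.531 and 1.16 FPKM in SS replicates 1 and 2, and at 9.27, 12.5 and 9.94 in replicates 3, 4 and 5, while the 5 Per1KO libraries lay between them at 3.0 to 4.11. Dbp went the other way, at 196 and 137 FPKM in SS replicates 1 and 2 and 33.6, 8.13 and 24.9 in replicates 3, 4 and 5, against 33.5 to 63 in Per1KO. Ciart had 5.68 and 3.91 FPKM in the former and 0.103, 0.0711 and 0.315 in the latter, and it was under the filter of that table. The mean differences of these genes on high salt therefore describe no single SS library. The difference was -0.31 for Arntl (adjusted p = 0.638) and 0.03 for Dbp (adjusted p = 0.976). The labels give these 5 libraries as 1 group. Their library names fall along the same line, since replicates 1 and 2 carry names of 1 number series and replicates 3, 4 and 5 names of another. Per1KO replicates 1 to 3 and replicates 4 and 5 also carry names of separate number series, and their Arntl values were 3.31, 3.14 and 4.11 FPKM in the former and 3.77 and 3.0 in the latter. The part of this spread in the results on high salt that follow was not tested. Nr1d1 was lower in all 5 Per1KO libraries, at 10.7 to 15.2 FPKM, than in 4 of the SS libraries, and SS replicate 4 stood at 13.4.

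On high salt at 2pm, the label comparison was far wider, with 4445 of 14899 genes passing (29.8%). Of 49 called genes with a value there, 29 had the same sign as on normal salt, against 51.5% of all genes. Of these 49, 12 passed, where 29.8% of all genes did, so passing there was not more common among them. Of the 12, 11 had the same sign, and this share was not taken for all genes that passed. Nr1d1 was lower on high salt by a similar amount, -0.95 ± 0.19 (adjusted p = 0.00139). Hes6, Alas1, Gmppb, Apba3 and RGD1309188 were lower on both diets, and LOC100364791, Spns2, Irf2bpl and Rab33b higher on both. Ppfibp2 passed with the opposite sign, at -0.41. The change of the label difference with diet passed for 3102 of 14102 genes (22%) and for 19 of the 50. It was -0.50 for Cnot2 (adjusted p = 0.00127) and -0.96 for Hhat (0.00425), and did not pass for Dbp (1.18, adjusted p = 0.112). The tables of both diets were made separately, and levels are not compared between them. Within SS on high salt, which shares no library with normal salt, 811 genes differed between 2am and 2pm (5.44%), and the 2am minus 2pm difference had the same sign as the label difference of normal salt at 2pm for 37 of 49 called genes with a value, against 59.7% of all genes. Of the 15 that passed in that comparison, 13 had the same sign.

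**Figure D5:**
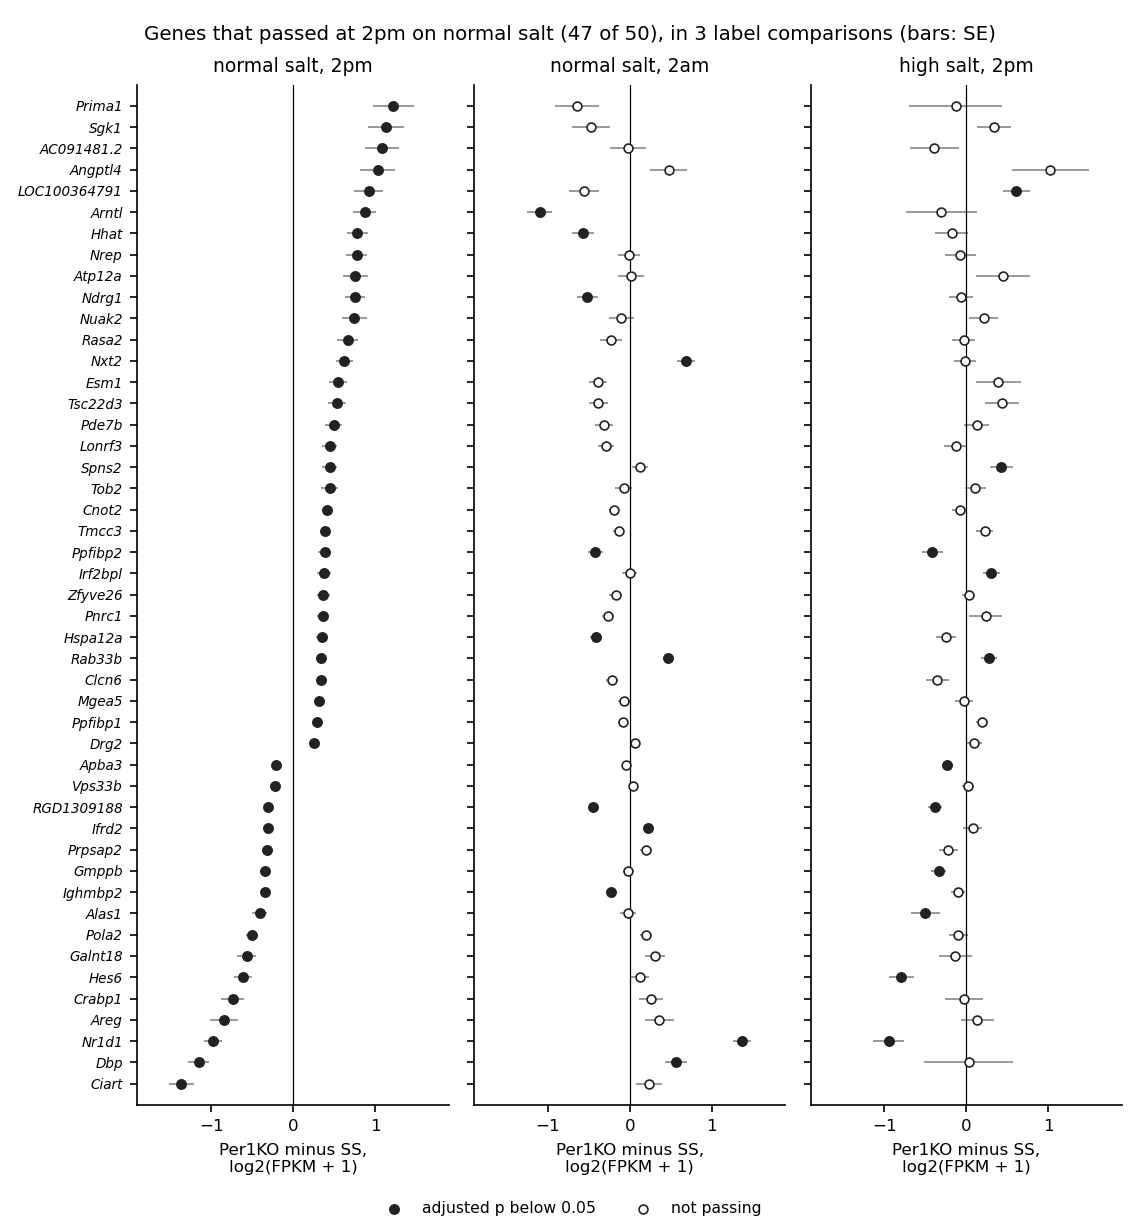
Label difference on the log2(FPKM + 1) scale, with its SE as a bar, of 47 of the 50 genes that passed at 2pm on normal salt, in that comparison (left), at 2am on normal salt (middle) and at 2pm on high salt (right). Filled points passed in the panel they stand in. In the middle panel Nr1d1 and Arntl lie on the other side of 0, and in the right panel Nr1d1 stays below 0 and Ciart, which was not tested there, has no point.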

How the data were processed

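Kidney cortex poly(A) mRNA was sequenced, and the authors deposited 1 FPKM table per diet. Per the submitters' processing notes, fastp, HISAT2 2.0.5, featureCounts 1.5.0-p3 and StringTie 1.3.3b were used. The genome build and the strand setting are not given in the sources used here, so overlapping and antisense genes cannot be told apart.

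Of 32545 genes in the normal salt table, the 13436 with a FPKM of at least 1 in at least 5 of its 23 libraries were tested on log2(FPKM + 1) with limma 3.58.1 (R 4.3.3), as 4 group means with a trended prior and Benjamini-Hochberg adjustment, two-sided. The high salt table was fitted alone, and the label by diet interaction in a fit of 8 groups over 43 libraries. Whole fragments recovered from the deposited FPKM served for depth and for voom, an alternative: 100% of values were whole within 0.01, and voom called 52 genes, all 50 among them. Single values were compared by exact permutation over libraries. The fit of 4 groups was tested on simulated data in which each gene had the same spread in all groups. Unequal spread between groups and libraries that stand apart were not simulated.

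Same-numbered libraries of both labels deviated together, with correlations of 0.185, 0.469, 0.131, 0.155, 0.199 and 0.306 for numbers 1 to 6, all above 0.1. The numbers were therefore tried as a block in alternative fits, and the main fit does not pair the samples. Only 2 of 6 correlate best with their own number, and the titles give no litter or day. Per1KO numbers 1, 3 and 4 reached 0.421, 0.483 and 0.279 with another SS number. The block stands beside results whose call it changes.

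The rule for named genes took all tested members of the core clock, Per1 among them, of the genes that passed the 12 that rose most and the 12 that fell most, up to 4 passing members of each list, or up to 2 with the smallest p where none passed, genes that passed in the fit of the 12 libraries, and markers of a library that stood apart. The other genes that passed, and Hlf, Klf9, Fkbp5, Zbtb16, Scnn1a and Slc12a3, were chosen after their values were seen. The results of a few of these genes are not reported here. The comparison, members and lists were chosen with earlier results of these data known. Alternatives were a pseudocount of 0.1, other filters, rescaling, the block, array weights, a fit of the 12 libraries, and leaving out each library or both that stood apart.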

Additional observations from a re-analysis of the deposited data

Results flagged for a closer look

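A single library lay far from the other 5 of its label for several of the values above, by a gap that passed the critical value of Dixon for 6 libraries. This held for 17 of 192 groups of 6 libraries looked at, and chance flags about 1 group in 20. The groups come from the same 12 libraries, so the flags are not independent. Per1KO replicate 1 was the library that stood apart for Arntl, Hspa12a, Lonrf3 and Ppfibp2, and for each flagged marker sum of Per1KO. Among genes, the FPKM of the library that stood apart was the highest of Per1KO for Arntl 4.56, Hspa12a 13.2, Lonrf3 2.9, Ppfibp2 14.2, Alas1 44.5 and Zbtb16 4.7, the lowest of Per1KO for Apba3 15.6, and the highest of SS for Pola2 5.77, Vps33b 7.82 and Cry1 4.91. Among summed marker levels, it was the highest of Per1KO for proximal tubule at 13198 FPKM and erythrocytes at 160.5, and the lowest for macrophages and neutrophils at 375 and for lymphocytes at 23.5. In SS it was the highest for the thick ascending limb at 3331, for erythrocytes at 77 and for urothelium at 1.92.

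The label difference changed with time for 43 of the 77 genes named, by the interaction in limma at an adjusted p below 0.05. Over all genes tested, 378 (2.81%) passed. The change, the difference at 2am minus that at 2pm on the log2(FPKM + 1) scale, was above 0 for 15 of them: 2.35 for Nr1d1, 1.72 for Dbp, 1.6 for Ciart, 1.39 for Nr1d2, 1.32 for Per3, 1.21 for Areg, 0.996 for Crabp1, 0.87 for Galnt18, 0.78 for Cirbp, 0.73 for Hes6, 0.69 for Pola2, 0.55 for Tef, 0.53 for Ifrd2, 0.51 for Prpsap2 and 0.26 for Vps33b. It was below 0 for 28: -1.99 for Slc16a1, -1.97 for Arntl, -1.87 for Prima1, -1.61 for Sgk1, -1.49 for LOC100364791, -1.36 for Hhat, -1.27 for Ndrg1, -1.25 for Pdk4, -1.10 for Npas2, -1.02 for Nfil3, -0.94 for Esm1, -0.93 for Tsc22d3, -0.89 for Rasa2, -0.85 for Nuak2, -0.80 for Ppfibp2, -0.80 for Pde7b, -0.79 for Nrep, -0.78 for Cry1, -0.77 for Hspa12a, -0.77 for Clock, -0.74 for Lonrf3, -0.63 for Pnrc1, -0.61 for Cnot2, -0.56 for Clcn6, -0.54 for Zfyve26, -0.52 for Tmcc3, -0.39 for Mgea5 and -0.38 for Ppfibp1. Most of these genes were named for their difference at 2pm on normal salt, which is part of the change tested.

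The label difference at 2pm changed with diet for 24 of the 77 genes by the same kind of test. Over all genes, 3102 of 14102 (22%) passed that test. The change, the difference on high salt minus that on normal salt, was above 0 for 9 of them: 1.06 for Per3, 0.98 for Areg, 0.84 for Scnn1a, 0.75 for Bhlhe41, 0.64 for Cirbp, 0.51 for Csnk1e, 0.40 for Pola2, 0.38 for Ifrd2 and 0.24 for Vps33b. It was below 0 for 15: -1.48 for AC091481.2, -0.96 for Hhat, -0.85 for Nrep, -0.82 for Ndrg1, -0.80 for Ppfibp2, -0.76 for Rora, -0.70 for Clcn6, -0.70 for Rasa2, -0.64 for Nxt2, -0.60 for Hspa12a, -0.59 for Clock, -0.58 for Lonrf3, -0.50 for Cnot2, -0.35 for Mgea5 and -0.34 for Zfyve26. Most of these genes were named for their difference at 2pm on normal salt, which is part of the change tested.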

How the results depend on the processing

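None of the 50 genes changed direction in any of the 22 other settings, of which 21 tested Atp12a. Calls depended more on the settings. Of 1692 values of the 77 named genes by setting, 1290 kept their direction and their side of the threshold, 370 lost a call, 13 gained one and 19 changed sign. A fit of only the 12 libraries called 3 genes, 0 higher and 3 lower, and 936 had a p below 0.05 before adjustment. Without a filter on low values 22 genes were higher, with array weights 22, and without SS replicate 5 and Per1KO replicate 1 together 21. Leaving out 1 library gave 19 to 113 genes in all, 10 to 80 higher and 7 to 33 lower. It was 16 of the 50 genes that kept their call in all 12 of those fits, and 22 without both libraries. The cause was not tested.

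With the replicate number as a block, 42 genes passed, 28 higher and 14 lower, and 36 of the 50 were among them. The block within the fit of only the 12 libraries, an alternative chosen after seeing the data, called 0 genes, 0 higher and 0 lower, and 1885 had a p below 0.05 before adjustment. Stc1 gained a call under the block, 12 of the named genes lost theirs, as given above, and no other call among the named genes changed.

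Changes of sign concerned genes that did not pass. Over the fits that leave out 1 library or both, the difference ran from -0.27 to 0.0016 for Per1, -0.090 to 0.077 for Per2, -0.15 to 0.098 for Hlf, -0.34 to 0.088 for Zbtb16 and -0.33 to 0.41 for Slc12a3. With array weights it was 0.058 for Bhlhe40, 0.011 for Per2 and -0.11 for Slc12a3. A pseudocount of 0.1, a mean FPKM of at least 1, median-ratio rescaling and voom gave 51, 49, 52 and 52 genes.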
